A study of Mus musculus with 35 samples.

Results

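The CXC chemokine genes followed here were Cxcl1, Cxcl2, Cxcl3, Cxcl5, Cxcl12, Cxcl14 and Cxcl16, 7 of the 55487 genes in the deposited tables. They were taken by symbol, and each symbol was found once in each of the 4 tables. The study asked what IAMP, a micropeptide encoded in mouse by 4930523C07Rik, does in cardiac fibroblasts (CFs) and in the heart. CFs were isolated from adult mouse hearts by enzyme digestion, kept as the cells that adhered to the plate, and transfected with a control siRNA (si-NC) or with either of 2 siRNAs against IAMP (si-IAMP-1 and si-IAMP-2). Each siRNA was sequenced in untreated CFs, in CFs given IL-17 and in CFs given TGF-β, with 3 libraries per group and 27 in all. For IL-17 the labels give 24 h of siRNA and then 24 h of stimulus, and times for the untreated and TGF-β cells were not found in the sources used here. The hearts came from 8-week-old C57BL/6 mice, 4 carrying the IAMP frameshift on 1 allele (Het) and 4 on both (KO), so that the controls carried a mutant allele as well. The frameshift was made by CRISPR-Cas9, and the sources do not say whether the KO mice go back to more than 1 founder.

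CXC chemokines are small secreted or membrane-anchored proteins that draw leukocytes along a gradient by binding G protein-coupled receptors. Those with a glutamate-leucine-arginine (ELR) motif before the first cysteines, here Cxcl1, Cxcl2, Cxcl3 and Cxcl5, bind CXCR2 and call neutrophils, and in stromal cells IL-17 is known to raise them both by transcription and by slowing the decay of their mRNA. Of the members without ELR, Cxcl12 binds CXCR4 and the scavenging receptor ACKR3, Cxcl16 is a transmembrane ligand of CXCR6 that ADAM10 can shed, and Cxcl14 is a homeostatic chemokine of epithelium and fibroblasts.

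The 4 ELR genes lie together on the plus strand of chromosome 5 (GRCm38, GENCODE vM21), within 146579 bases. In order they are Cxcl5 (ENSMUSG00000029371, 90759360 to 90761624), Cxcl3 (ENSMUSG00000029379, 90786103 to 90789600), Cxcl1 (ENSMUSG00000029380, 90891241 to 90893115) and Cxcl2 (ENSMUSG00000058427, 90903871 to 90905938). Between them the annotation places 3 other protein-coding genes, the platelet chemokines Ppbp and Pf4 and the lung chemokine Cxcl15, and 4 noncoding entries. Cxcl12 (ENSMUSG00000061353) occupies bases 117168535 to 117181367 of chromosome 6, plus strand, Cxcl14 (ENSMUSG00000021508) on the minus strand of chromosome 13 from 56288643 to 56296551, and Cxcl16 (ENSMUSG00000018920) on the minus strand of chromosome 11 from 70453983 to 70459984. Cxcl2 and Cxcl3 share a stretch of 157 identical bases in their annotated transcripts, and the next longest stretch shared by any pair of members was 23 bases. Reads from that stretch could have been given to either gene, so the levels of Cxcl2 and Cxcl3 are uncertain to that extent. Cxcl16 overlaps Zmynd15, on the opposite strand, by 552 bases, and since the strand setting of the counting is not given in the sources used here, reads there cannot be told apart.

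Promoter sequence from RefSeq (GRCm38.p6) was found for 5 of the 7 members: Cxcl1, Cxcl2, Cxcl3, Cxcl12 and Cxcl14. Bases −120 to −31 from the annotated start are printed for the 3 ELR genes found, which were called higher with IL-17 and with TGF-β, and for Cxcl12, which was not. Capitals mark matches to the NF-κB consensus, on either strand. The regions are chr5:90891125-90891214 for Cxcl1, chr5:90903779-90903868 for Cxcl2, chr5:90785981-90786070 for Cxcl3 and chr6:117168415-117168504 for Cxcl12, all on the plus strand.
Cxcl1: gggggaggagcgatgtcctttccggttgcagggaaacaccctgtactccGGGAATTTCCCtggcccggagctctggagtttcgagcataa
Cxcl2: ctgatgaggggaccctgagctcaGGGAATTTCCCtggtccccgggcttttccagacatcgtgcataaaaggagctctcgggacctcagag
Cxcl3: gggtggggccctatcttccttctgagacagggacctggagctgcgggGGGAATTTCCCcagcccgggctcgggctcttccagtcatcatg
Cxcl12: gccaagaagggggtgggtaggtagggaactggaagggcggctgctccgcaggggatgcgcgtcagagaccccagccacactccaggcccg

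The 3 ELR promoters held the same 11 bases, GGGAATTTCCC, in which the consensus is read once on each strand with an overlap of all but the outer bases. The match began 71 bases before the start of Cxcl1, 97 before that of Cxcl2 and 73 before that of Cxcl3. No match lay in the 300 bases around the starts of Cxcl12 or Cxcl14. Over all 32851 promoters of this length the consensus was present in 4.51%. With 12 bases added on each side of the match, Cxcl1 and Cxcl2 were identical at 26 of 35 bases, Cxcl1 and Cxcl3 at 19 and Cxcl2 and Cxcl3 at 18. Of the other motifs searched on both strands, none of the 5 promoters held TTGCNNAA, the C/EBP motif present in 10.8% of promoters, or TGANTCA, the AP-1 motif present in 7.81%. The hypoxia response core ACGTG, found in 19.6% of promoters, occurred in Cxcl1 and, on both strands of the same site, in Cxcl3. TATAAA, found in 13.6%, occurred in Cxcl3 alone among these 5.

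Levels are in CPM, the count of a gene scaled to the size of its library after TMM normalization, ± the SD over libraries. A gene was called in a comparison at an adjusted p of at most 0.05 in edgeR's quasi-likelihood test, Benjamini-Hochberg adjusted over all genes tested, if its log2 fold change also reached 1 in either direction, or 0.585 (1.5-fold) between siRNAs under IL-17 or TGF-β. Errors on log2 fold changes are SEs. Since nothing in the labels says that the libraries of a group came from separate cultures, the p values measure the spread between these libraries, which may be technical. The libraries are bulk RNA, in which fewer cells of a type and less RNA per cell cannot be told apart.

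The 27 CF libraries held 104139670 to 119232309 estimated counts and the 8 heart libraries 23497027 to 23857313 counts. As a check of the labels, 4930523C07Rik was lower in every knockdown library than in every si-NC library of its table. In untreated CFs its log2 fold change was −2.97 ± 0.11 with si-IAMP-1 and −3.69 ± 0.12 with si-IAMP-2. In hearts it stood at 15.9 to 18.8 CPM in Het and 15.15 to 17.3 in KO (log2 fold change −0.09 ± 0.07, edgeR adjusted p = 1), which does not check the genotype, since the frameshift leaves the transcript in place. All 8 fibroblast markers averaged at least 1 CPM in each CF group, and the cardiomyocyte markers of the hearts summed to between 45760 and 49520 CPM. No neutrophil marker reached 1 CPM in untreated or IL-17-treated CFs, and 1 of 8 did under TGF-β.

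In untreated CFs given si-NC, Cxcl12 was the most abundant member per length, followed by Cxcl5. Per kilobase of exon, Cxcl12 stood at 30.3 ± 0.94 CPM, Cxcl5 at 15.7 ± 0.59, Cxcl16 at 8.83 ± 1.0, Cxcl14 at 2.18 ± 0.27 and Cxcl1 at 1.26 ± 0.28. Cxcl2 and Cxcl3 were lowest, at 0.132 ± 0.065 and 0.125 ± 0.034, and their libraries overlapped each other. No other neighbours in this order overlapped. For Cxcl1, Cxcl2 and Cxcl3 the annotated exons of all transcripts together cover the whole gene, at 1875, 2068 and 3498 bases. Their introns are thus counted as length, which lowers their values beside those of the other members. The places of these genes in the order are therefore uncertain. With either siRNA against IAMP the order began with Cxcl5, at 152 ± 2.8 CPM per kilobase for si-IAMP-1 and 96.9 ± 4.5 for si-IAMP-2, and Cxcl12 came next. Under IL-17 and TGF-β Cxcl5 was first in every siRNA group, and the largest mean, 1578 ± 49 CPM per kilobase, was that of TGF-β with si-IAMP-2. The ELR genes made up 10.4% of the members' summed CPM in untreated si-NC cells, 41.6% with si-IAMP-1 and 50.1% with si-IAMP-2. In IL-17 and TGF-β groups they made up 73.8% to 88.7%. The plot of CPM by library and group shows all 7 members.

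**Figure D1:**
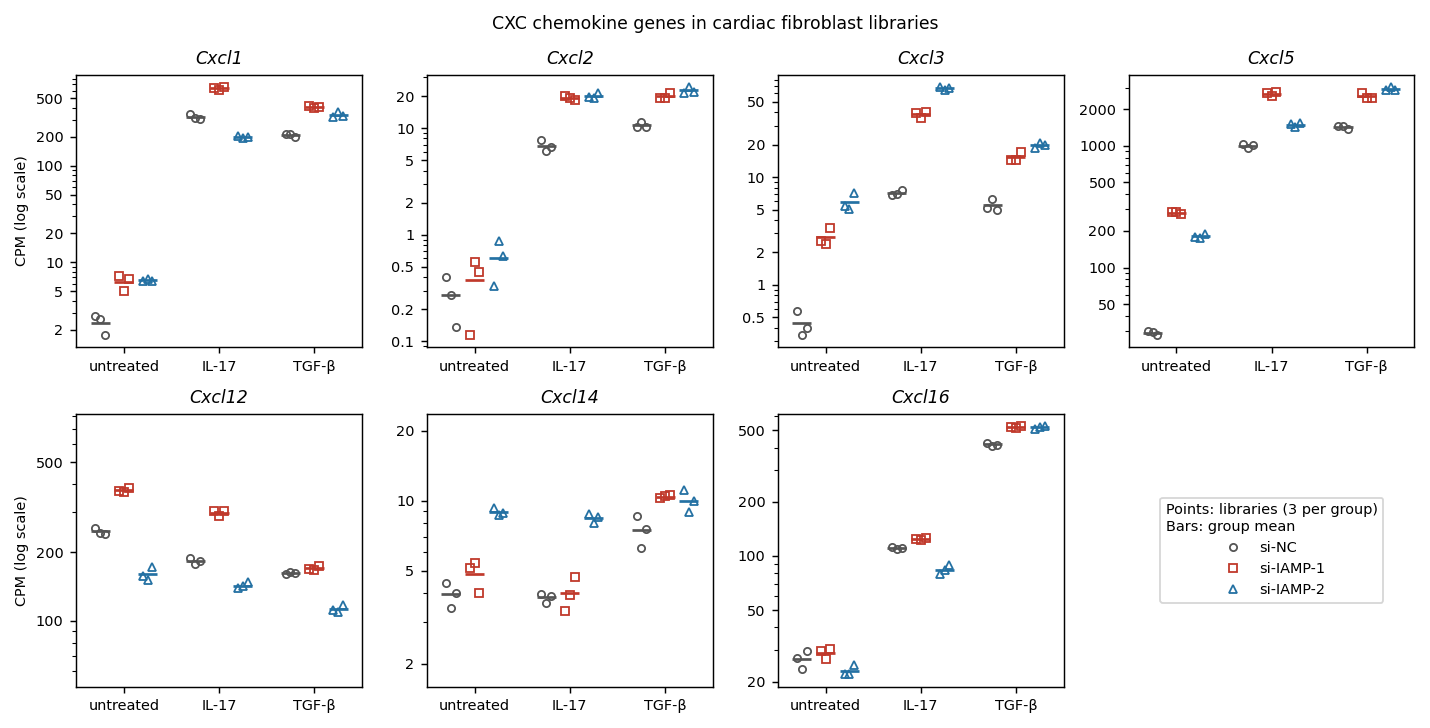
CPM (log scale, each panel with its own range) of the 7 CXC chemokine genes in 27 CF libraries, by stimulus (x axis) and siRNA (colour and symbol), with bars at the means of 3 libraries. The 4 ELR genes and Cxcl16 lie far higher under IL-17 and TGF-β than in untreated cells. Cxcl12 lies in the order si-IAMP-1, si-NC, si-IAMP-2 in untreated, IL-17 and TGF-β cells, with si-IAMP-1 just above si-NC under TGF-β. Cxcl1 under IL-17 lies above si-NC with si-IAMP-1 and below it with si-IAMP-2.

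The first comparison asks which members changed when IAMP was knocked down in untreated CFs. Both siRNAs of a table are compared with the same 3 si-NC libraries. With si-IAMP-1, 3 of the 7 members were called, all higher, where 4.76% of all genes tested were called. With si-IAMP-2, 4 were called, all higher, against 10.7% of all genes. The median log2 fold change of the 7 was 0.60 with si-IAMP-1 and 1.15 with si-IAMP-2, and that of all genes was −0.02 in both. Cxcl1, Cxcl3 and Cxcl5 rose with both siRNAs, Cxcl14 rose with si-IAMP-2, and Cxcl2, Cxcl12 and Cxcl16 were not called with either. Markers of other cells moved as well. The 8 smooth muscle and pericyte markers summed to between 210.0 and 211.9 CPM with si-NC, 104.4 and 109.3 with si-IAMP-1, and 82.2 and 85.6 with si-IAMP-2, with 6, 6 and 5 of the 8 averaging at least 1 CPM. The 8 macrophage markers, cells that also make ELR chemokines, summed to between 22.1 and 24.4 CPM with si-NC, 25.8 and 26.5 with si-IAMP-1, and 35.6 and 37.3 with si-IAMP-2, with 6 of the 8 averaging at least 1 CPM in each group and none at 0. The 8 cardiomyocyte markers summed to between 90.9 and 98.3 CPM with si-NC, 42.6 and 47.7 with si-IAMP-1, and 28.3 and 33.3 with si-IAMP-2, with 1 of the 8 averaging at least 1 CPM in each group. Of the 8 smooth muscle and pericyte markers, 1 was called lower with si-IAMP-1 and 3 with si-IAMP-2, where 4.76% and 10.7% of all genes were called. Of the 8 macrophage markers 0 and 1 were called higher, and of the 5 cardiomyocyte markers tested 1 and 3 were called lower. None of the 8 endothelial markers was called with either siRNA. The part of these cells in these results was not tested.

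Cxcl5, a neutrophil attractant made by stromal and epithelial cells, had the largest fold change of the members with si-IAMP-1. Its libraries read 29.9, 29.8 and 27.9 CPM with si-NC, 285, 285 and 276 with si-IAMP-1, and 177, 174 and 190 with si-IAMP-2. The 3 groups did not overlap, and si-IAMP-1 was the highest. The log2 fold change was 3.27 ± 0.042 with si-IAMP-1 (edgeR adjusted p = 6.23e-18) and 2.61 ± 0.042 with si-IAMP-2 (edgeR adjusted p = 9.12e-17). Between the siRNAs, si-IAMP-2 was lower by a log2 fold change of −0.66 ± 0.038, under the threshold of 1 (edgeR adjusted p = 4.26e-10).

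Cxcl3, another CXCR2 ligand, had the largest fold change of the members with si-IAMP-2 and came after Cxcl5 with si-IAMP-1. Its libraries read 0.571, 0.342 and 0.401 CPM with si-NC, 2.58, 2.41 and 3.34 with si-IAMP-1, and 5.44, 5.09 and 7.15 with si-IAMP-2. The si-NC values came from 69, 41 and 50 estimated counts, so the fold changes rest on a low baseline. The groups did not overlap, and here si-IAMP-2 was the highest. The log2 fold change was 2.65 ± 0.21 with si-IAMP-1 (edgeR adjusted p = 3.19e-08) and 3.73 ± 0.22 with si-IAMP-2 (edgeR adjusted p = 2.52e-10). The difference between the siRNAs, 1.07 ± 0.19 higher with si-IAMP-2, was called (edgeR adjusted p = 0.000142), but it fell to 0.91 without si-IAMP-2 replicate 3 and to 0.98 without si-IAMP-1 replicate 2, both under the threshold.

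Cxcl1, the keratinocyte-derived chemokine of mice, rose about equally with both siRNAs. Its libraries read 2.75, 2.58 and 1.76 CPM with si-NC, 7.19, 5.06 and 6.65 with si-IAMP-1, and 6.36, 6.74 and 6.39 with si-IAMP-2. Every knockdown library lay above every si-NC library, and the knockdown groups overlapped each other. The log2 fold changes were 1.41 ± 0.16 (edgeR adjusted p = 1.83e-06) and 1.44 ± 0.16 (edgeR adjusted p = 7.76e-07). Cxcl2, the remaining ELR gene and also known as MIP-2, was near the floor of detection of 18 estimated counts, or 0.144 to 0.173 CPM. Its libraries read 0.405, 0.275 and 0.136 CPM with si-NC, 0.115, 0.562 and 0.447 with si-IAMP-1, and 0.328, 0.874 and 0.627 with si-IAMP-2. The groups overlapped, and no difference was detectable at this depth (log2 fold change 0.45 ± 0.55, edgeR adjusted p = 0.581, and 1.14 ± 0.54, edgeR adjusted p = 0.0964). With si-IAMP-1 replicate 1 left out, the value for si-IAMP-2 was called at the same log2 fold change (edgeR adjusted p = 0.0486).

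Cxcl12, the CXCR4 ligand that holds haematopoietic and immune cells in their niches, moved in opposite directions with the 2 siRNAs. Its libraries read 256, 244 and 242 CPM with si-NC, 373, 369 and 383 with si-IAMP-1, and 157, 151 and 173 with si-IAMP-2. The 3 groups did not overlap. Against si-NC the log2 fold change was 0.60 ± 0.044 with si-IAMP-1 (edgeR adjusted p = 1.15e-08) and −0.64 ± 0.044 with si-IAMP-2 (edgeR adjusted p = 2.08e-09), both under the threshold of 1 and therefore not called. The direct difference between the siRNAs, −1.24 ± 0.044 for si-IAMP-2 against si-IAMP-1, was called (edgeR adjusted p = 1.14e-12). The summed level of the 8 fibroblast markers ran the same way, at 12370 to 12690 CPM with si-IAMP-1, 9262 to 9350 with si-NC and 8608 to 8834 with si-IAMP-2, and its part in the Cxcl12 result was not tested.

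Cxcl14 read 4.45, 3.47 and 4.01 CPM with si-NC, 5.16, 5.38 and 4.02 with si-IAMP-1, and 9.31, 8.70 and 8.84 with si-IAMP-2. The si-IAMP-2 libraries lay above all the others, and the si-NC and si-IAMP-1 libraries overlapped. It rose with si-IAMP-2 (log2 fold change 1.15 ± 0.12, edgeR adjusted p = 5.96e-07), while with si-IAMP-1 the log2 fold change was 0.28 ± 0.13 (edgeR adjusted p = 0.0872). The difference between the siRNAs, 0.87 ± 0.12, was under the threshold of 1 (edgeR adjusted p = 1.67e-05). Cxcl16 stood between 21.9 and 30.2 CPM in all 9 untreated libraries, with log2 fold changes of 0.11 ± 0.079 and −0.23 ± 0.079. Of si-IAMP-2 against si-IAMP-1, 2 of 7 members were called, Cxcl3 higher and Cxcl12 lower, against 6.65% of all genes.

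The same knockdowns were then compared in CFs given IL-17. With si-IAMP-1, 5 of the 7 members were called, all higher, where 13.5% of all genes were called. With si-IAMP-2, 4 were called, 3 higher and 1 lower, where 21.7% of all genes were. Between the siRNAs 5 were called, 2 higher and 3 lower with si-IAMP-2, where 15.7% of all genes were. The median log2 fold change of the members was 0.97 and 0.56 against si-NC, and that of all genes −0.0026 and −0.017. Cxcl2 and Cxcl3 rose with both siRNAs, and Cxcl1 rose with si-IAMP-1 and fell with si-IAMP-2.

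Under IL-17 the Cxcl1 libraries read 344, 311 and 309 CPM with si-NC, 633, 611 and 657 with si-IAMP-1, and 205, 197 and 200 with si-IAMP-2. The 3 groups were apart, with si-NC in the middle. Against si-NC the log2 fold change was 0.97 ± 0.039 with si-IAMP-1 (edgeR adjusted p = 3.02e-12) and −0.70 ± 0.039 with si-IAMP-2 (edgeR adjusted p = 8.09e-11). Between the siRNAs it was −1.67 ± 0.040 (edgeR adjusted p = 3.59e-15), a 3.18-fold lower level with si-IAMP-2.

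Cxcl3 was the member with the largest fold change under IL-17 with either siRNA. Its libraries read 6.79, 6.98 and 7.64 CPM with si-NC, 39.4, 35.4 and 40.3 with si-IAMP-1, and 68.7, 64.0 and 67.5 with si-IAMP-2. As in untreated cells, the groups did not overlap and si-IAMP-2 was the highest. The log2 fold change was 2.42 ± 0.063 with si-IAMP-1 (edgeR adjusted p = 1.72e-14) and 3.20 ± 0.064 with si-IAMP-2 (edgeR adjusted p = 2.81e-16), and it was 0.79 ± 0.058 higher with si-IAMP-2 than with si-IAMP-1 (edgeR adjusted p = 4.54e-09). Cxcl2 read 7.80, 6.06 and 6.61 CPM with si-NC, 19.9, 19.2 and 18.3 with si-IAMP-1, and 19.4, 19.3 and 21.4 with si-IAMP-2. Both knockdown groups lay above si-NC and overlapped each other. Its log2 fold changes were 1.48 ± 0.085 and 1.53 ± 0.085, with edgeR adjusted p of 2.88e-10 and 7.66e-11.

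Cxcl5 under IL-17 read 1028, 959 and 1006 CPM with si-NC, 2725, 2548 and 2742 with si-IAMP-1, and 1519, 1417 and 1533 with si-IAMP-2. All knockdown libraries lay above si-NC. It rose with si-IAMP-1 (log2 fold change 1.41 ± 0.038, edgeR adjusted p = 2.42e-14), and with si-IAMP-2 the log2 fold change of 0.56 ± 0.037 fell just short of 0.585 (edgeR adjusted p = 9.53e-10), passing it at 0.59 without si-IAMP-2 replicate 2. The siRNAs differed by −0.85 ± 0.038 (edgeR adjusted p = 7.43e-12). The ELR genes did not share a single order of the siRNAs under IL-17, with Cxcl1 and Cxcl5 called lower and Cxcl3 called higher in si-IAMP-2 than in si-IAMP-1.

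Cxcl12 under IL-17 kept the order it had in untreated cells, at 189, 178 and 183 CPM with si-NC, 306, 288 and 305 with si-IAMP-1, and 139, 142 and 148 with si-IAMP-2. The rise with si-IAMP-1 was called here, at the threshold of 0.585 (log2 fold change 0.70 ± 0.033, edgeR adjusted p = 2.19e-11). In untreated cells the value of 0.60 also passed 0.585, but not the threshold of 1 used there. The si-IAMP-1 effect under IL-17 minus that in untreated cells was 0.11 ± 0.0555 (edgeR adjusted p = 0.497), so the effects were not shown to differ. With si-IAMP-2 the log2 fold change under IL-17 was −0.38 ± 0.033, under the threshold (edgeR adjusted p = 2.5e-08). The fibroblast marker sum was again highest with si-IAMP-1, at 11330 to 11790 CPM, but that of si-IAMP-2, at 8688 to 8929, lay just under the 9032 to 9146 with si-NC, and its part was not tested. Cxcl14 rose with si-IAMP-2, from 3.84 ± 0.17 to 8.45 ± 0.38 CPM (log2 fold change 1.12 ± 0.12, edgeR adjusted p = 3.16e-07), and was at 4.00 ± 0.67 CPM with si-IAMP-1, overlapping si-NC. The difference between the siRNAs, 1.07 ± 0.12, was called (edgeR adjusted p = 7.17e-07). Cxcl16 was at 110.4 ± 1.5 CPM with si-NC, 123.8 ± 1.8 with si-IAMP-1 and 84.0 ± 4.4 with si-IAMP-2. The groups were apart, and both log2 fold changes, 0.16 ± 0.035 and −0.42 ± 0.035, were under the threshold. Between the siRNAs it was −0.57 ± 0.035, also under the threshold, and −0.62, past it, without si-IAMP-2 replicate 3. The macrophage markers summed to 24.1 to 25.1 CPM with si-NC, 29.1 to 30.1 with si-IAMP-1 and 36.1 to 40.5 with si-IAMP-2. The smooth muscle and pericyte markers summed to 215.5 to 222.9 CPM with si-NC, 112.6 to 120.6 with si-IAMP-1 and 81.5 to 90.2 with si-IAMP-2, with 3 of the 8 called lower with si-IAMP-1 and, with si-IAMP-2, 4 lower and 1 higher. The cardiomyocyte markers summed to 70.3 to 77.2, 32.5 to 36.0 and 23.5 to 26.3 CPM in the same order. The neutrophil markers summed to 0.066 to 0.31 CPM with si-NC, 0.67 to 0.87 with si-IAMP-1 and 0.65 to 0.84 with si-IAMP-2, with the 1 marker that passed the filter called higher with both siRNAs and Ly6g, Ngp, Retnlg and Elane at 0 in all 9 libraries. The part of these cells in the IL-17 results was not tested.

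**Figure D2:**
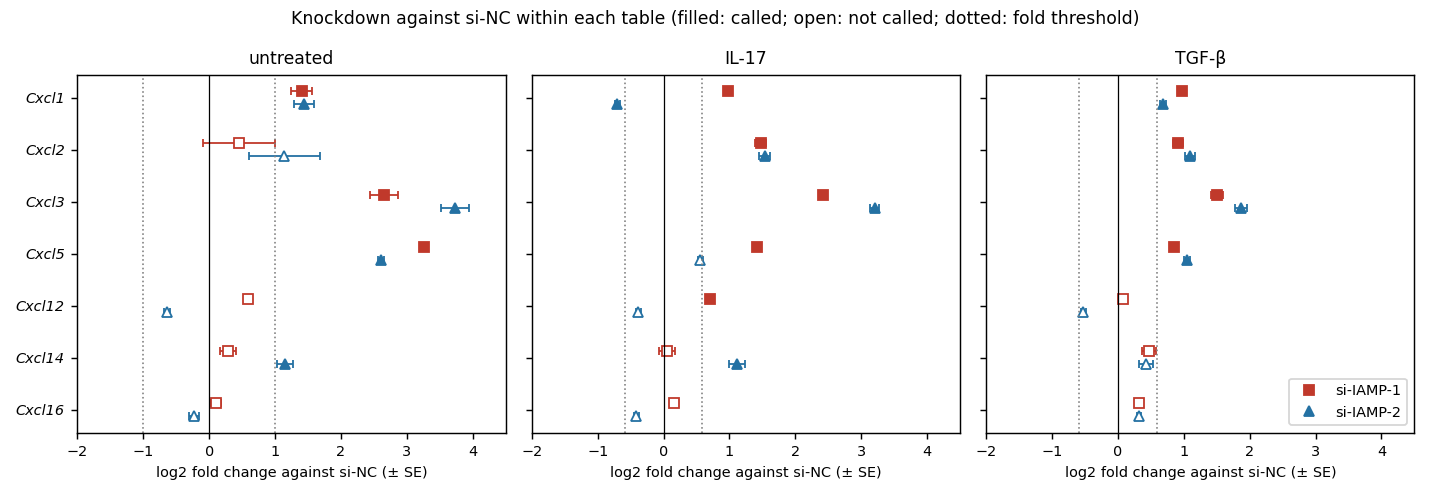
Log2 fold change against si-NC (x axis, ± SE) of the 7 members (y axis) with si-IAMP-1 (squares) and si-IAMP-2 (triangles), in untreated, IL-17 and TGF-β cells, each against the 3 si-NC libraries of its own table; filled symbols were called and dotted lines mark the fold threshold. Cxcl3 lies to the right in all 3 panels, and Cxcl1 lies on both sides of 0 under IL-17, at 0.97 and −0.70.

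Under TGF-β the 2 siRNAs gave the same calls at the threshold of 0.585. In each, 4 of the 7 members were called, all higher, and these were the 4 ELR genes. Of all genes 4.36% were called with si-IAMP-1 and 7.51% with si-IAMP-2. At the threshold of 1, used in untreated cells, the calls were not the same. Cxcl3 alone passed it with si-IAMP-1, and Cxcl2, Cxcl3 and Cxcl5 passed it with si-IAMP-2. The median log2 fold change of the members was 0.85 and 0.69, and that of all genes 0.00030 and 0.014. Cxcl3 again had the largest fold change, with 5.20, 6.20 and 4.95 CPM with si-NC, 14.5, 14.5 and 17.3 with si-IAMP-1, and 18.8, 20.9 and 20.0 with si-IAMP-2. Its log2 fold changes were 1.501 ± 0.094 and 1.87 ± 0.094, with edgeR adjusted p of 4.16e-09 and 1.58e-10.

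The other ELR genes rose by less under TGF-β. Cxcl1 read 212, 212 and 201 CPM with si-NC, 422, 393 and 409 with si-IAMP-1, and 322, 358 and 326 with si-IAMP-2, so that here, unlike under IL-17, both knockdown groups lay above si-NC. Its log2 fold changes were 0.97 ± 0.043 (edgeR adjusted p = 6.11e-11) and 0.69 ± 0.043 (edgeR adjusted p = 1.85e-09). Cxcl5 read 1462, 1451 and 1361 CPM with si-NC, 2703, 2491 and 2480 with si-IAMP-1, and 2889, 3044 and 2884 with si-IAMP-2. This was the only CF table in which si-IAMP-2 had the higher Cxcl5 level of the pair, by a log2 fold change of 0.20 ± 0.040, under the threshold (edgeR adjusted p = 0.0013). Against si-NC its log2 fold changes were 0.85 ± 0.041 and 1.05 ± 0.041, and those of Cxcl2 were 0.91 ± 0.074 and 1.09 ± 0.075.

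None of the members without ELR was called against si-NC under TGF-β. Cxcl12 was at 161.9 ± 1.6 CPM with si-NC, 170.6 ± 3.7 with si-IAMP-1 and 112.4 ± 4.3 with si-IAMP-2, with log2 fold changes of 0.08 ± 0.035 and −0.53 ± 0.035. The difference of −0.60 ± 0.035 between the siRNAs was the only one called of the 7 members, against 3.96% of all genes (edgeR adjusted p = 4.14e-09), and it stood near the threshold, at −0.58 without si-IAMP-2 replicate 2 or without si-IAMP-1 replicate 3. Under TGF-β the fibroblast markers summed to 14850 to 15510 CPM with si-NC, 15410 to 15780 with si-IAMP-1 and 16360 to 17140 with si-IAMP-2. The sum was thus highest with si-IAMP-2, where Cxcl12 was lowest, unlike in untreated cells, and its part was not tested. Cxcl14 had log2 fold changes of 0.47 ± 0.11, which became 0.59 and was called without si-NC replicate 1, and 0.42 ± 0.11. Cxcl16 had log2 fold changes of 0.32 ± 0.031 with either siRNA. The 8 neutrophil markers summed to 3.22 to 3.55 CPM with si-NC, 5.37 to 5.73 with si-IAMP-1 and 4.99 to 5.73 with si-IAMP-2, with 1 of the 8 averaging at least 1 CPM, and Retnlg and Cxcr2 at 0 in all 9 libraries. The smooth muscle and pericyte markers summed to 181.6 to 198.5 CPM with si-NC, 129.9 to 135.8 with si-IAMP-1 and 122.1 to 129.7 with si-IAMP-2, with 1 and 3 of the 8 called lower. The macrophage markers, higher with knockdown in untreated and IL-17 cells, were not so here. They summed to 49.9 to 58.0 CPM with si-NC, 45.0 to 49.3 with si-IAMP-1 and 51.0 to 54.0 with si-IAMP-2, with 2 and 1 of the 8 called lower. The part of these cells in the ELR results was not tested.

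A further comparison asks how the stimuli moved the members. Untreated, IL-17 and TGF-β cells are in separate tables, so that the stimulus and whatever else differed between the tables cannot be told apart. TGF-β differed from untreated cells in far more genes than IL-17 did, and the 3 comparisons with each stimulus use different libraries on both sides. The markers of cell types differed with TGF-β too. In si-NC cells the macrophage markers summed to 22.1 to 24.4 CPM untreated and 49.9 to 58.0 under TGF-β, and the endothelial markers to 66.2 to 72.1 and 116.7 to 117.8. The cardiomyocyte markers summed to 90.9 to 98.3 and 5.54 to 6.31 CPM, and the neutrophil markers to 0.050 to 0.18 and 3.22 to 3.55. The smooth muscle and pericyte markers summed to 210.0 to 211.9 and 181.6 to 198.5 CPM, and the fibroblast markers to 9262 to 9350 and 14850 to 15510. The part of these cells was not tested. With IL-17, 5 of the 7 members were called in each siRNA group, all higher: the 4 ELR genes and Cxcl16. Of all genes 1.46% were called in si-NC cells, 1.83% with si-IAMP-1 and 1.65% with si-IAMP-2. The median log2 fold change of the members was 4.02, 3.24 and 3.04, and that of all genes between −0.0079 and 0.

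In si-NC cells IL-17 took Cxcl1 from 2.37 ± 0.53 to 321.3 ± 19.8 CPM, a log2 fold change of 7.09 ± 0.12 (edgeR adjusted p = 7.09e-20), the 7th highest of 22359 genes tested. Cxcl5 went from 29.2 ± 1.1 to 997.5 ± 35.2 CPM (log2 fold change 5.10 ± 0.049, edgeR adjusted p = 5.13e-36). Cxcl2 and Cxcl3 rose by 4.65 ± 0.33 and 4.02 ± 0.16 on the log2 scale, from 0.272 ± 0.13 and 0.438 ± 0.12 CPM. Cxcl16 rose by 2.05 ± 0.058, from 26.7 ± 3.1 to 110.4 ± 1.5 CPM (edgeR adjusted p = 4.44e-20). Cxcl12 and Cxcl14 were not called, with log2 fold changes of −0.43 ± 0.039 and −0.05 ± 0.12.

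With knockdown the same 5 members were called under IL-17, but by other amounts for Cxcl1 and Cxcl5. Cxcl1 had a log2 fold change under IL-17 of 6.65 ± 0.11 with si-IAMP-1 and 4.95 ± 0.11 with si-IAMP-2. Cxcl5 had 3.24 ± 0.044 and 3.04 ± 0.044, and Cxcl3 had 3.79 ± 0.14 and 3.50 ± 0.13. Tested directly, as the siRNA effect under IL-17 minus that in untreated cells, the difference was called for 1 member with si-IAMP-1 (0.170% of all genes) and for 2 with si-IAMP-2 (0.174%), all lower. Cxcl5 was called with both, at −1.85 ± 0.059 (edgeR adjusted p = 2.28e-20) and −2.05 ± 0.059 (edgeR adjusted p = 1.23e-21). Cxcl1 was called with si-IAMP-2, at −2.14 ± 0.15 (edgeR adjusted p = 2.02e-08), and with si-IAMP-1 the difference was −0.44 ± 0.16 (edgeR adjusted p = 0.217). For Cxcl2 and Cxcl3 the siRNA effects in the 2 conditions were not shown to differ, with differences from −0.52 ± 0.21 to 1.03 ± 0.49.

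With TGF-β, the 4 ELR genes and Cxcl16 were called higher in every siRNA group. In si-NC cells these 5 were the only members called, against 20.8% of all genes, and the same held with si-IAMP-2, against 20.1%. With si-IAMP-1 all 7 were called, 6 higher and 1 lower, against 20.0%. The median log2 fold change of the members was 3.96 in si-NC cells, 3.18 with si-IAMP-1 and 4.03 with si-IAMP-2, and that of all genes 0.019 to 0.057.

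Cxcl16 had its highest CPM under TGF-β. In si-NC cells it stood at 26.7 ± 3.1 CPM untreated, 110.4 ± 1.5 under IL-17 and 417.0 ± 6.4 under TGF-β, a log2 fold change of 3.96 ± 0.062 for TGF-β against untreated (edgeR adjusted p = 7.65e-27). Its TGF-β and IL-17 values were not tested against each other. Zmynd15, which overlaps it, had group means between 1.599 and 35.2 CPM in CFs. Cxcl1 rose under TGF-β by 6.46 ± 0.12 on the log2 scale in si-NC cells, Cxcl5 by 5.61 ± 0.050, Cxcl2 by 5.29 ± 0.33 and Cxcl3 by 3.63 ± 0.17, with edgeR adjusted p between 5.55e-37 and 1.21e-11. Cxcl12 was lower in all 3 siRNA groups, with log2 fold changes of −0.61 ± 0.040 in si-NC cells and −0.51 ± 0.040 with si-IAMP-2, both under the threshold, and a called fall of −1.14 ± 0.040 with si-IAMP-1 (edgeR adjusted p = 7.67e-22). Cxcl14 had log2 fold changes of 0.91 ± 0.12 in si-NC cells, 1.10 ± 0.12 with si-IAMP-1 and 0.16 ± 0.12 with si-IAMP-2, of which the second was called (edgeR adjusted p = 1.61e-09), though it fell to 0.98 without untreated si-IAMP-1 replicate 3, and the first rose to 1.01 without TGF-β si-NC replicate 2.

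**Figure D3:**
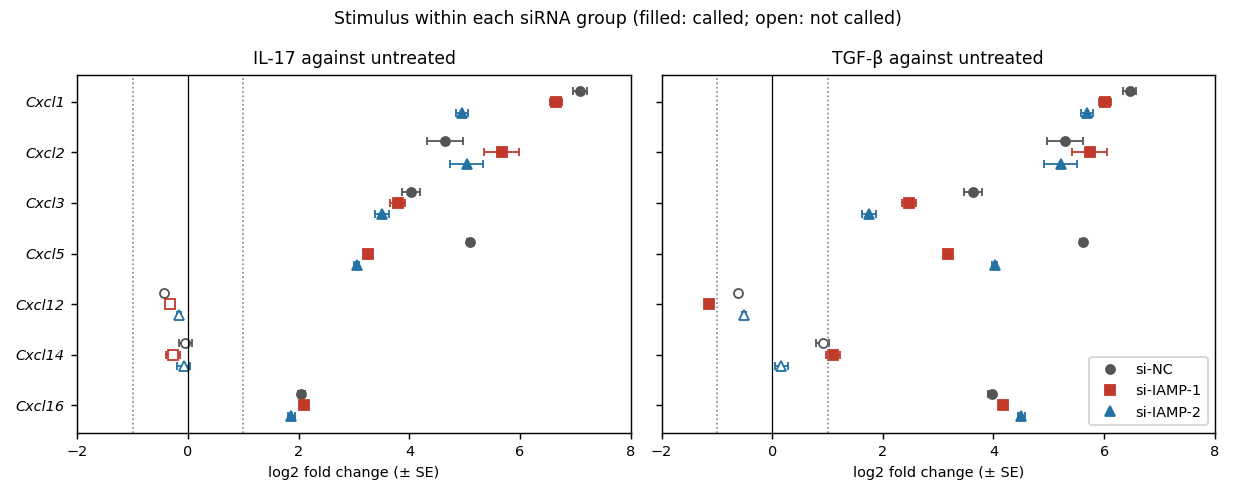
Log2 fold change of IL-17 (left) or TGF-β (right) against untreated cells (x axis, ± SE) for the 7 members (y axis) within each siRNA group; filled symbols were called and dotted lines mark a log2 fold change of 1 in either direction. For Cxcl5 the si-NC point, at 5.10 and 5.61, lies to the right of both knockdown points in both panels.

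The siRNA effect under TGF-β minus that in untreated cells was called for 2 members with each siRNA, in 2.31% of all genes with si-IAMP-1 and 4.95% with si-IAMP-2. These were Cxcl3, at −1.16 ± 0.22 (edgeR adjusted p = 0.000259) and −1.88 ± 0.21 (edgeR adjusted p = 1.12e-07), and Cxcl5, at −2.43 ± 0.059 (edgeR adjusted p = 4.21e-24) and −1.58 ± 0.059 (edgeR adjusted p = 1.91e-19). Cxcl5 was therefore called lower in all 4 of these tests of a difference, the others being those under IL-17. These 4 tests share the untreated si-NC libraries. In CPM the gap ran the other way, from 282 against 29.2 for si-IAMP-1 in untreated cells to 2672 against 997.5 under IL-17.

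In whole hearts the ELR genes were close to absent. Cxcl5 had 0 counts in all 8 hearts, which allows up to 0.120 to 0.130 CPM per library (3 counts). Cxcl2 had 3 counts in each Het heart and 2, 0, 3 and 3 in the KO hearts, and Cxcl3 had 2, 2, 0 and 4 against 1, 0, 1 and 2, so that neither gets a fold change. These floors cover counting error only. Cxcl1 had 10 to 14 counts in Het and 7 to 15 in KO hearts, or 0.515 ± 0.086 and 0.457 ± 0.17 CPM. The members without ELR were expressed, Cxcl12 at 12.8 ± 1.7 CPM per kilobase of exon in Het and 12.7 ± 0.74 in KO, Cxcl14 at 7.29 ± 1.2 and 7.90 ± 0.68, and Cxcl16 at 2.04 ± 0.18 and 1.68 ± 0.13.

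Of the 7 members 4 were tested between KO and Het hearts and none was called, and of all genes 0% were called. edgeR called none of the 16675 genes tested, 601 had an unadjusted p under 0.05, and DESeq2 called 3 genes, none of them a member. Cxcl12 read 98.7, 96.5, 98.8 and 125 CPM in Het and 95.4, 107, 109 and 105 in KO, and the groups overlapped (log2 fold change −0.01 ± 0.084, edgeR adjusted p = 1). Cxcl14 read 15.9, 11.1, 12.2 and 14.1 CPM in Het and 13.1, 13.7, 15.1 and 15.8 in KO, again overlapping (0.12 ± 0.11, edgeR adjusted p = 1). Cxcl16 read 5.65, 5.78, 6.82 and 6.36 CPM in Het and 5.04, 4.56, 5.38 and 5.39 in KO. All 4 KO values of Cxcl16 lay below the Het values, as the groups of 2.37% of all genes were apart in either direction, and its log2 fold change of −0.27 ± 0.096 did not pass (edgeR adjusted p = 1). The counts of 10 or so for Cxcl1 leave a change of its size, −0.17 ± 0.29, within its error.

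**Figure D4:**
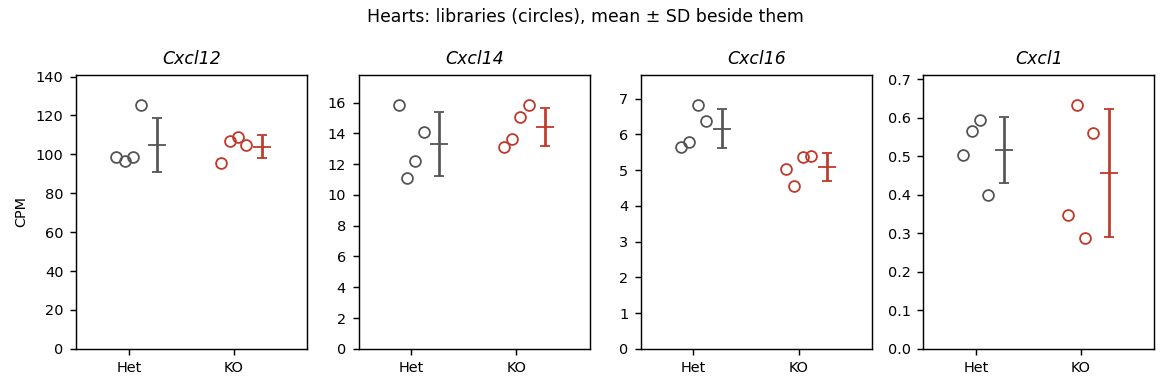
CPM (y axis, from 0, each panel with its own range) of the 4 members with enough counts for a test in Het and KO hearts; circles are hearts, 4 per group, and the bars beside them the mean ± SD. The groups overlap for Cxcl12, Cxcl14 and Cxcl1, and the 4 KO hearts lie below the 4 Het hearts for Cxcl16.

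The receptors of these ligands were mostly low in untreated CFs. Of the 8 receptor genes Cxcr1 to Cxcr6, Ackr1 and Ackr3, 4 passed the filter in each CF table. Cxcr2, the receptor of the ELR ligands, had at most 9 estimated counts in any CF library, under the floor of 18. Cxcr4 was at 0.828 ± 0.093 CPM in untreated si-NC cells and was called with neither siRNA in any table. In the TGF-β libraries it read 5.22 to 7.09 CPM. Ackr3, which removes Cxcl12 from the surroundings, went against Cxcl12 in untreated cells: it read 1.99 ± 0.10 CPM with si-NC, 1.20 ± 0.11 with si-IAMP-1 and 4.96 ± 0.34 with si-IAMP-2, where Cxcl12 was highest with si-IAMP-1 and lowest with si-IAMP-2. Its log2 fold change was −0.73 ± 0.14 with si-IAMP-1, under the threshold, and 1.30 ± 0.14 with si-IAMP-2 (edgeR adjusted p = 5.66e-07). Under IL-17 it was −0.41 ± 0.087, again under the threshold, and 1.73 ± 0.086 (edgeR adjusted p = 1.75e-11), and under TGF-β 0.93 ± 0.057 and 0.36 ± 0.057, of which the first was called. The Ackr3 level was higher in these tables. Under IL-17 it read 5.18 to 6.13 CPM with si-NC, 4.10 to 4.45 with si-IAMP-1 and 17.8 to 20.9 with si-IAMP-2. In the TGF-β libraries it read 19.1 to 40.0 CPM. The receptors called against si-NC were therefore Ackr3 alone in these 3 tables.

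Of the 8 other CXC ligands, 3 were tested in untreated cells. None of these was called with si-IAMP-1 and 1 with si-IAMP-2, Cxcl10, which was lower, where 4.76% and 10.7% of all genes were called. Cxcl10, an interferon-induced ligand of CXCR3, fell under IL-17 with both siRNAs, by 1.99 ± 0.43 (edgeR adjusted p = 0.00941) and by 2.52 ± 0.44 (edgeR adjusted p = 0.00278) on the log2 scale, where Cxcl2 and Cxcl3 rose. Its libraries read 56.2, 37.4 and 19.6 CPM with si-NC, 7.62, 9.12 and 11.99 with si-IAMP-1, and 5.62, 8.67 and 5.75 with si-IAMP-2, and the wide spread of si-NC did not reach the knockdown libraries. Under IL-17 another ligand was lower with each siRNA, Pf4 with si-IAMP-1 (log2 fold change −0.79 ± 0.083) and Cxcl11 with si-IAMP-2. That made 2 of 4 tested with each, where 13.5% and 21.7% of all genes were called. Under TGF-β 1 of 6 tested was higher with both, Cxcl9, where 4.36% and 7.51% of all genes were called, and Cxcl10 was not called. Of the genes lying among the ELR genes on chromosome 5, Pf4 reached 18.5 CPM and Ppbp 1.09 CPM as the highest CF group mean, and Cxcl15 0.022 CPM.

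Of the 8 processing enzymes, 7 were tested in each CF table. Mmp8, a collagenase that can cut ELR chemokines, rose with both siRNAs in untreated cells (log2 fold changes 2.10 ± 0.20 and 2.12 ± 0.20) and under IL-17 (2.32 ± 0.16 and 2.60 ± 0.16), from 0.896 ± 0.29 CPM in untreated si-NC cells. Of the list, 2 of 7 were called higher with si-IAMP-1, Mmp8 and the peptidase gene Dpp4, and 1 with si-IAMP-2, Mmp8, in untreated cells, where 4.76% and 10.7% of all genes were called, and none lower. Under IL-17, 3 were higher with si-IAMP-1 and 2 with si-IAMP-2, where 13.5% and 21.7% of all genes were called, and under TGF-β 2 and 0, where 4.36% and 7.51% were, with none lower. Of the 16 genes of the IL-17 receptor and of chemokine control, all tested in the CF tables, 1 was higher with si-IAMP-1 and 3 with si-IAMP-2 in untreated cells, where 4.76% and 10.7% of all genes were called, and none was lower. Cebpb, a factor that acts with NF-κB on IL-17 targets, was the one called with both, at 1.19 ± 0.053 and 1.62 ± 0.053. Under IL-17, 2 were higher and 1 lower with si-IAMP-1, and 4 higher and 1 lower with si-IAMP-2, where 13.5% and 21.7% of all genes were called, so that with both siRNAs, and with si-IAMP-1 in untreated cells, the list's share lay near that of all genes. Il17ra, a subunit of the IL-17 receptor, rose by 0.62 ± 0.036 and 0.84 ± 0.036, and Tnfaip3, which encodes the NF-κB inhibitor A20, by 0.80 ± 0.051 and 1.16 ± 0.051. Arid5a, whose protein protects chemokine mRNA from decay, fell by 0.70 ± 0.068 and 0.60 ± 0.068. The higher Il17ra was not particular to IL-17. In untreated cells it read 52.3 to 58.0 CPM with si-NC, 83.0 to 86.3 with si-IAMP-1 and 108.7 to 120.4 with si-IAMP-2. Its knockdown libraries lay above si-NC under TGF-β as well. Under TGF-β none of the 16 was called with either siRNA.

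The members differed in how alike their patterns were over the 9 CF group means, which share si-NC groups and tables and are given as a description. On log2(CPM + 0.5), Pearson's r was 0.96 between Cxcl1 and Cxcl2, 0.94 between Cxcl1 and Cxcl5, 0.78 between Cxcl1 and Cxcl3, and 0.83 between Cxcl3 and Cxcl5. Cxcl1 and Cxcl2 lie 10755 bases apart at one end of the cluster, and Cxcl3 and Cxcl5 24478 bases apart at the other. Likeness did not follow this order, since r was 0.93 between Cxcl2 and Cxcl5, the outermost genes, and 0.84 between Cxcl2 and Cxcl3. Cxcl16, on chromosome 11, had 0.83 with Cxcl1, 0.85 with Cxcl2, 0.82 with Cxcl5 and 0.48 with Cxcl3. Cxcl12 had negative values with all other members, from −0.74 with Cxcl14 to −0.39 with Cxcl5. Among the 13329 genes averaging 1 CPM or more, those most like Cxcl1 were Icam1 (0.99), Zc3h12a (0.98) and Nfkbia (0.98), those most like Cxcl2 were Nos2 (0.98), Tnip1 (0.98) and Il1a (0.98), and those most like Cxcl5 were Ccl7 (0.98), Fgf7 (0.97) and Hif1a (0.96). Most like Cxcl3 were Gm45774 (0.98), Mettl2 (0.97) and Celsr3 (0.97), and most like Cxcl12 were Mfhas1 (0.99), Nipa1 (0.98) and Tead1 (0.98). Most like Cxcl14 were Mrps35 (0.99), Meak7 (0.98) and Smim10l1 (0.98). For Cxcl16 they were Zmynd15 (0.99), the gene that overlaps it, Spsb1 (0.99) and Lcn2 (0.99).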

How the data were processed

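RNA-Seq was made of 27 CF and 8 heart libraries from oligo(dT)-selected RNA. The authors used Cutadapt to trim reads, HISAT2 to align them to GRCm38 and StringTie for quantification. The deposited CF values were read as estimated counts, and the deposited heart values as raw counts, both whole numbers without normalization. The strand setting and annotation release are not given in the sources used here. Among CF genes seen in 1 library the most frequent value was 6, so 18 estimated counts (3 read pairs) were taken as the floor, and 3 counts in hearts. The heart column names hold the genotype and a number that the labels do not tie to a sample, so hearts are given in column order.

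Estimated counts were rounded and fitted in edgeR 4.0.16 (R 4.3.3) with filterByExpr, TMM and a robust quasi-likelihood fit, 1 fit per table for siRNAs and 1 of all 27 CF libraries for stimuli, differences of effects and CPM. SEs are the absolute log2 fold change over the root of F. The pipeline was tested on simulated data. Thresholds for untreated and IL-17 cells follow the study, and those for TGF-β, stimuli and hearts were set here. Alternatives were DESeq2 1.42.0, RLE factors, other filters, thresholds and sample sets, a replicate block, division of CF values by 6, exon lengths from the longest transcript, and each library left out. Members, gene lists and tests were chosen with earlier results of these data known. Besides members, the genes named are 4930523C07Rik, Cxcr2, Cxcr4, Ackr3, up to 4 per list called alike with both siRNAs in untreated or IL-17 cells, genes between the outermost members on chromosome 5, and the 3 most alike in pattern; Zmynd15 was named for its overlap, and Cxcl9, Cxcl11 and Dpp4 after their values were seen. Authors' own fold changes were not used, and 0 columns of per-sample values were left out.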

Additional observations from a re-analysis of the deposited data

Results flagged for a closer look

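Of 12 heart groups with differing values, 1 held a heart far from the rest, the Het heart with Cxcl12 at 125.4 CPM beside 96.5 to 98.8 in the other three; chance alone marks about 1 group in 20. Without it the log2 fold change of Cxcl12 between KO and Het was 0.085 in place of −0.01.

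In 7 cases the effect of an siRNA differed between stimulated and untreated cells by the test of the difference itself in edgeR. For Cxcl5 the log2 effect was lower by 1.85 (−1.85) under IL-17 with si-IAMP-1, by 2.05 (−2.05) under IL-17 with si-IAMP-2, by 2.43 (−2.43) under TGF-β with si-IAMP-1 and by 1.58 (−1.58) under TGF-β with si-IAMP-2. For Cxcl1 under IL-17 with si-IAMP-2 the difference was −2.14, and the effect itself turned from 1.44 in untreated cells to −0.70. For Cxcl3 under TGF-β it was −1.16 with si-IAMP-1 and −1.88 with si-IAMP-2. The stimulus and the table cannot be told apart in any of these.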

How the results depend on the processing

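Leaving out each library, DESeq2, RLE factors, other filters, fewer samples in the fit, division by 6 and the replicate block kept direction and call for most values. At the other fold threshold (0.585 for 1, and 1 for 0.585) the number of members called was 4 in place of 2 for si-IAMP-2 against si-IAMP-1 in untreated cells, 3 in place of 5 for si-IAMP-1 under IL-17, 3 in place of 5 between the siRNAs under IL-17, 1 in place of 4 for si-IAMP-1 under TGF-β, 0 in place of 1 between the siRNAs under TGF-β, and 4 in place of 2 for the difference of the si-IAMP-2 effect between TGF-β and untreated cells. With each library left out in turn, the number called ranged from 1 to 2 between the siRNAs in untreated cells, from 5 to 6 under IL-17 and from 0 to 1 under TGF-β, and from 4 to 5 for si-IAMP-1 under TGF-β, the values without each such library being given above. Other counts changed too. At 0.585 Cxcl12 was called with both siRNAs in untreated cells (0.60 and −0.64), and Cxcl12 and Cxcl14 for TGF-β in si-NC cells (−0.61 and 0.91). At 1 Cxcl1 was not called with si-IAMP-2 under IL-17 (−0.70) or TGF-β (0.69). With 1 library left out, Cxcl2 in untreated cells and Cxcl5 under IL-17 were called with si-IAMP-2. Calls of Cxcl14 between TGF-β and untreated cells changed as well, as given above. The values that changed sign were not called in any setting. Divided by 6, the difference of the Cxcl2 effect of si-IAMP-2 between TGF-β and untreated cells was 0.043 in place of −0.08. With libraries left out it ranged from −0.45 to 0.27, and between IL-17 and untreated cells from −0.0033 to 0.74. In the same way Cxcl1 ranged from −0.10 to 0.14 between the siRNAs in untreated cells and from −0.37 to 0.00076 in hearts, and Cxcl12 from −0.048 to 0.085 in hearts. Cxcl14 ranged from −0.086 to 0.16 for si-IAMP-1 under IL-17, from −0.14 to 0.020 between the siRNAs under TGF-β, from −0.14 to 0.036 for IL-17 in si-NC cells and from −0.11 to 0.059 for the difference of the si-IAMP-2 effect under IL-17. Cxcl16 ranged from −0.013 to 0.011 between the siRNAs under TGF-β and from −0.034 to 0.14 for the difference of the si-IAMP-1 effect under IL-17. The cause was not tested. CPM without TMM were 0.957 to 1.04 times those given, and CPM per kilobase of the longest transcript up to 1.45 times. For Cxcl1, Cxcl2 and Cxcl3 the longest transcript has 1871, 2066 and 3498 bases, so this setting cannot show the effect of counting their introns.

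The replicate numbers did not pair the libraries: of 27 pairs, the correlations of deviations from the group means ran from −0.17 to 0.06. With the replicate block the members called stayed at 3 and 4 in untreated cells, and none of 152 values changed direction or call. No paired analysis was possible in hearts because the numbers in the column names are not tied to samples or litters and none is shared between Het and KO. Depth limited Cxcl2 in untreated CFs and the ELR genes in hearts.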
